A study of Mus musculus with 14 samples.

Results

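The genes described here encode 10 extracellular proteins through which glial and other cells of the brain act on synapses: the thrombospondins Thbs1, Thbs2, Thbs3 and Thbs4, the glypicans Gpc4, Gpc5 and Gpc6, the matricellular proteins Sparc and Sparcl1 (hevin), and the cytokine Tgfb1. They were taken by symbol from the 32830 genes of the deposited table, and all 10 were found and passed the filter on low values. The libraries came from the cerebral cortex of 14-day-old SW strain mice, all carrying the Aldh1l1-GFP reporter, in which the promoter of the astrocyte gene Aldh1l1 drives green fluorescent protein. Upper and deep cortical layers were separated by hand under dissection. From each layer came 3 libraries of sorted GFP-positive cells (astrocytes), 2 of sorted GFP-negative cells (non-astrocytes) and 2 of whole tissue that was not dissociated (bulk tissue), 14 libraries in 6 groups. The labels number the libraries but do not tie them to separate animals, so every p-value below reflects no more than the scatter among these libraries, part or all of which may be technical.

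Thrombospondins are large multimeric glycoproteins that bind the calcium channel subunit alpha2delta-1 on neurons and promote the formation of structurally complete synapses. Glypicans are heparan sulfate proteoglycans held at the membrane by a lipid anchor, from which they can be shed, and Gpc4 and Gpc6 recruit AMPA-type glutamate receptors to synapses. Hevin bridges neurexin and neuroligin across the synaptic cleft, its relative Sparc counters that action, and Tgfb1 acts through receptor kinases and SMAD proteins after release from a latent complex.

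Levels are normalised read counts: the reads counted on a gene after division by the size factor of the library. A difference is a log2 difference between groups from limma, on log2(value + 1), and a gene was called at a Benjamini-Hochberg adjusted p below 0.05 over 22575 tested genes. Each library held 18226457 to 30316765 reads in genes. The sort separated the fractions. All 12 astrocyte markers were higher in astrocytes than in non-astrocytes, with summed normalised counts of 1044650 to 1530190 against 27540 to 35258, and 207392 to 245876 in bulk tissue. The cells labelled non-astrocytes carried little neuronal RNA: 10 neuron markers summed to 4705 to 9998 there, against 131780 to 169456 in bulk tissue and 570.0 to 766.0 in astrocytes. Markers of microglia, endothelial cells, mural cells, fibroblasts and oligodendrocyte precursors were all higher in non-astrocytes than in bulk tissue (10 of 10, 10 of 10, 9 of 9, 7 of 7 and 6 of 6). In each comparison of sorted cells with bulk tissue, fewer cells of a type and less RNA per cell cannot be told apart. The library of upper layer non-astrocytes 1 listed 30333 genes with a read, against 23671 to 26356 in the other libraries. For the 10 genes, the fraction calls and the layer differences named in non-astrocytes are also given without it. Other family genes, receptors, partners and response genes are given only with it.

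Promoter sequence is shown for 4 of the factors because they lay on opposite sides of the sort: Gpc5 and Thbs3 were higher in astrocytes, and Thbs2 and Tgfb1 were higher in non-astrocytes. Each run holds the 250 bases before the RefSeq transcription start (GRCm38.p6), 5′ to 3′ on the strand of the gene. Capitals mark matches on either strand. They are to TATAAA, the core promoter element, TTGGCA, part of the site of nuclear factor I, and TGANTCA, the site of AP-1. They are also to GAGGAA, the site of the ETS factor PU.1, and GGGCGG, the GC box. None of these matches overlap. The SOX core ACAAT was also searched and has no match in any of the promoters. Promoters of 7 of the 10 genes were matched, all but Thbs1, Gpc6 and Sparcl1.
Gpc5: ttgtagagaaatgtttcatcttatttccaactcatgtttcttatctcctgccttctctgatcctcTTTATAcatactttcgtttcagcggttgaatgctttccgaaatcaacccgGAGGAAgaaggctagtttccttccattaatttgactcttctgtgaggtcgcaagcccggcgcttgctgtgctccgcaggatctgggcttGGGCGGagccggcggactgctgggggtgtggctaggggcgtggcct
Thbs3: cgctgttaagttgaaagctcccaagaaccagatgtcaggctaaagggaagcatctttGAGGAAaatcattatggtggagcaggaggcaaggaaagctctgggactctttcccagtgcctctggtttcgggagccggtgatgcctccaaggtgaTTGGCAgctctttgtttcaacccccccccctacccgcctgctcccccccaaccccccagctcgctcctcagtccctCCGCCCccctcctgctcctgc
Thbs2: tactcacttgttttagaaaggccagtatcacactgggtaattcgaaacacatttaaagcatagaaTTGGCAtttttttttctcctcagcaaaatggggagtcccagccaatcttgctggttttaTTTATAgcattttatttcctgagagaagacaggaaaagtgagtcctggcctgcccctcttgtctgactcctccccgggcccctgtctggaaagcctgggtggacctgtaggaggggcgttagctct
Tgfb1: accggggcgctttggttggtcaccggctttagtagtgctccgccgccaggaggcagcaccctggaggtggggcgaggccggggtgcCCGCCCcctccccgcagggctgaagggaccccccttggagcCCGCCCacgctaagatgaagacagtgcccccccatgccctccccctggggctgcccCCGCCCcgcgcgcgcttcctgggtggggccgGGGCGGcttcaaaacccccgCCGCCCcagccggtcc
The Gpc5 run lies at chr14:115091965-115092214 on the + strand, the Thbs3 run at chr3:89214930-89215179 on the + strand, the Thbs2 run at chr17:14694263-14694512 on the - strand and the Tgfb1 run at chr7:25686752-25687001 on the + strand. The Tgfb1 promoter had the highest GC content of the 4, at 75.2% with 21 CG dinucleotides, and held 5 GC boxes. Thbs2 had the lowest, at 46.8% with 3 CG dinucleotides and no GC box, while Thbs3 stood at 58.8% and Gpc5 at 51.2%. The median over 32851 promoters was 52.4% with 6 CG dinucleotides. A GC box is common, being found in 32.7% of those promoters, and GAGGAA in 23.3%. TATAAA stood in 12.4%, TTGGCA in 12.3%, TGANTCA in 6.75% and ACAAT in 27.7%. TATAAA was matched on the opposite strand in both Gpc5 and Thbs2, at -185 and -126 counted back from the start, where -1 is the last base printed. TTGGCA was matched in Thbs2 and Thbs3, at -185 and -97, so neither of these matches separated the astrocyte pair from the other pair. GAGGAA was matched in Gpc5 and Thbs3, at -135 and -193, and in neither Thbs2 nor Tgfb1. The shorter run GGAA, the core shared by ETS factors, was not searched, and it stands in all 4 runs on either strand. Of the other promoters matched, Gpc4 and Thbs4 held GAGGAA and a GC box, and Sparc held none of the motifs. A match is only a run of letters and was not tested as a binding site.

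**Figure D1:**
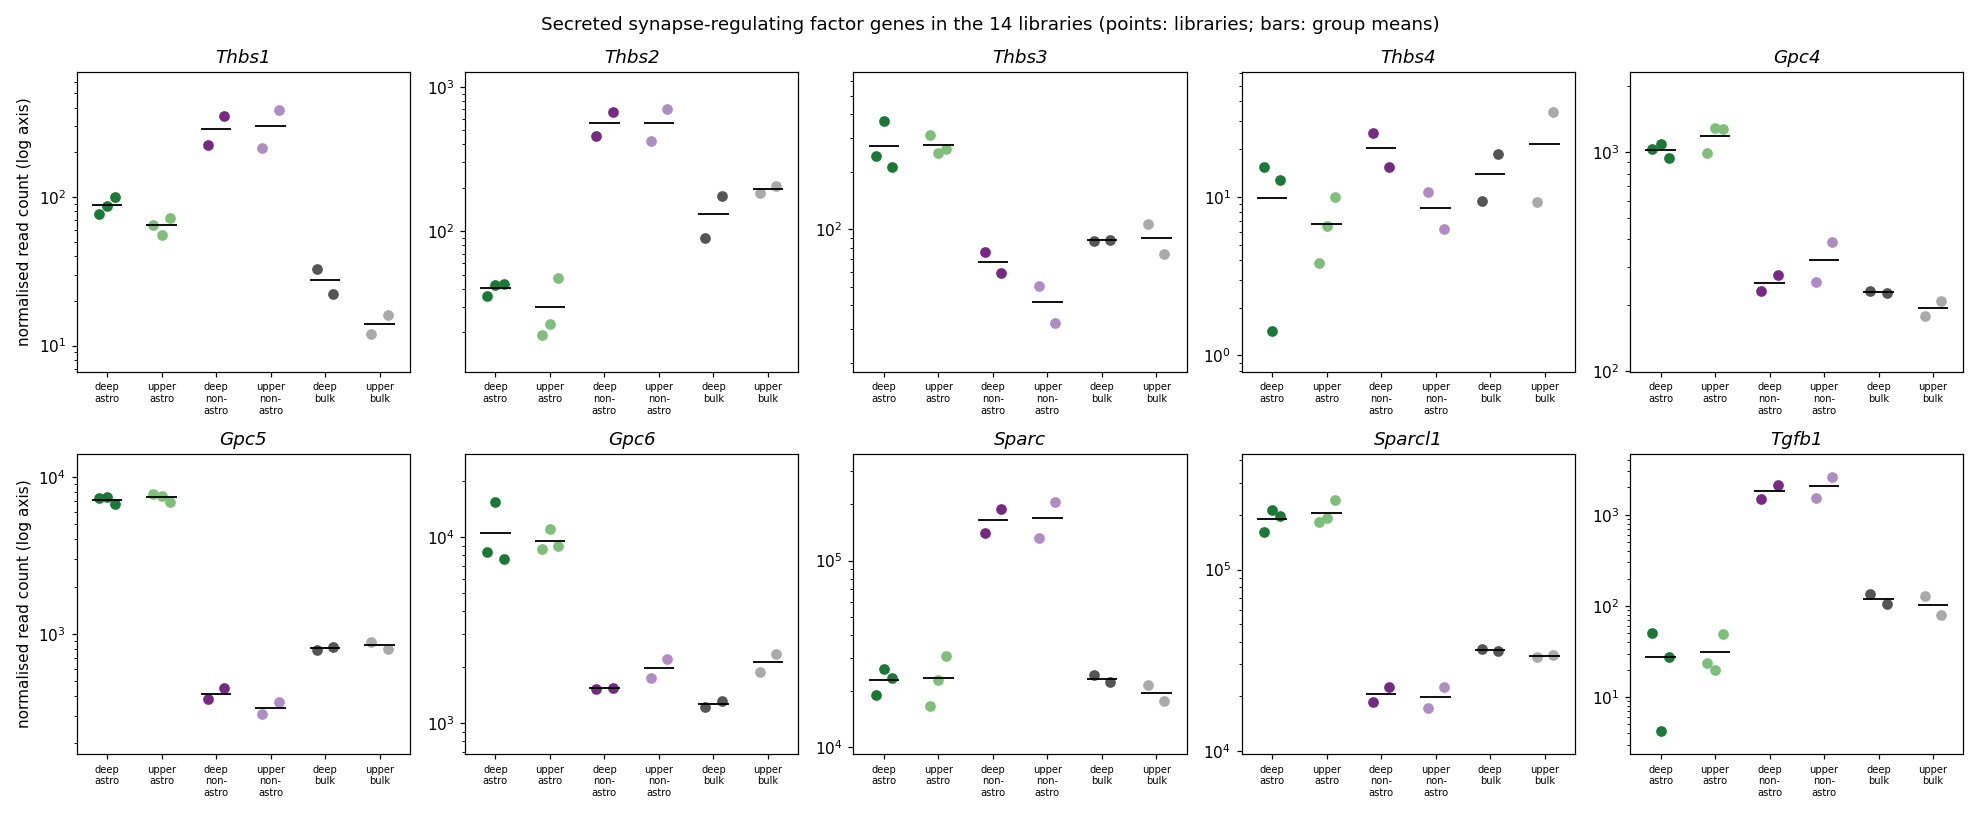
Normalised read counts (log axis) of the 10 genes in the 14 libraries; points are libraries, coloured by group, and bars are group means. Gpc5 sits between 6775 and 7788 in the 6 astrocyte libraries and at 893.0 or lower elsewhere, while Tgfb1 sits between 1510 and 2582 in non-astrocytes and at 136.3 or lower elsewhere.

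Astrocytes and non-astrocytes split the factors into opposed sets. Of the 10 genes, 5 were higher in astrocytes (29.6% of all tested genes were called higher) and 4 were lower (36.8% of all tested genes), over both layers with 6 libraries against 4. The higher set held Gpc5, Sparcl1, Gpc6, Thbs3 and Gpc4, and the lower set Tgfb1, Thbs2, Sparc and Thbs1. In none of these 9 did the libraries of the 2 fractions overlap, but the share of all genes without overlap was not counted. Thbs4 was not called. Each set crosses families: the thrombospondins and the SPARC pair had members on both sides. The median difference of the 10 genes was 0.56, beside -0.08 over all genes. edgeR and DESeq2 called these 9 genes in the same directions, as did limma without upper layer non-astrocytes 1.

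Among the thrombospondins, only Thbs3 was higher in astrocytes than in both non-astrocytes and bulk tissue. Its gene lies at chr3:89215180-89226837 on the + strand of GRCm38. Thbs3 stood at 240.8, 370.2 and 211.5 in deep layer astrocytes and at 311.3, 250.7 and 262.3 in upper layer astrocytes. It stood at 76.1 and 59.1 in deep and 50.7 and 32.3 in upper layer non-astrocytes, and at 86.9, 87.8, 106.9 and 74.1 in bulk tissue. Every astrocyte library was above every other library. The difference from non-astrocytes was 2.35 (SE 0.21, adjusted p = 9.24e-08 by limma with Benjamini-Hochberg adjustment), a ratio of means of 5.03, and the difference from bulk tissue was 1.60 (adjusted p = 6.99e-06). Of the exonic bases of Thbs3, 6.59% overlap Mtx1 on the opposite strand, and the sources used here do not say whether reads were counted by strand. Mtx1 itself stood at 331.6 ± 62.3 (SD, n = 6) in astrocytes, 301.6 ± 42.2 (SD, n = 4) in non-astrocytes and 321.8 ± 19.8 (SD, n = 4) in bulk tissue.

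Thbs1 and Thbs2, the 2 trimeric thrombospondins, were higher in non-astrocytes than in astrocytes. Thbs1 (chr2:118111876-118127133, + strand) stood at 76.7, 86.5 and 100.4 in deep and 64.9, 55.6 and 72.7 in upper layer astrocytes. It reached 225.8 and 352.8 in deep and 212.7 and 387.7 in upper layer non-astrocytes, and only 32.9, 22.2, 11.98 and 16.03 in bulk tissue. The 3 fractions did not overlap, and bulk tissue was the lowest. Thbs1 was thus lower in astrocytes than in non-astrocytes (log2 -1.91, SE 0.23, adjusted p = 3.22e-06, limma with Benjamini-Hochberg adjustment) and higher than in bulk tissue (log2 1.89, SE 0.23, adjusted p = 3.80e-06). Thbs2 (chr17:14665500-14694235, - strand) stood at 35.4, 42.6 and 43.4 in deep and 19.1, 22.9 and 47.4 in upper layer astrocytes. It stood at 454.0, 670.2, 425.3 and 707.3 in the non-astrocyte libraries and at 89.3, 174.6, 185.2 and 204.3 in bulk tissue. These ranges did not overlap either, but here astrocytes were the lowest. Thbs2 differed from non-astrocytes by -4.01 (SE 0.27, adjusted p = 3.70e-09 by limma), with a non-astrocyte mean 16.1 times the astrocyte mean, and from bulk tissue by -2.19 (SE 0.27, adjusted p = 3.82e-06).

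In non-astrocytes, replicate 2 exceeded replicate 1 in both layers for both genes, and for all of the 10 but Thbs3 and Thbs4, which went the other way. The ratios of replicate 2 to replicate 1 were 1.56 and 1.82 for Thbs1 in deep and upper layers, and 1.48 and 1.66 for Thbs2. They were 1.35 and 1.55 for Sparc, 1.43 and 1.67 for Tgfb1 and only 1.01 and 1.26 for Gpc6. How many of all genes were higher in replicate 2 was not counted. Summed markers of several cell types were also higher in replicate 2 in both layers, with ratios of 3.12 and 3.77 for blood, 1.61 and 1.87 for oligodendrocyte precursors, 1.15 and 1.44 for microglia, 1.35 and 1.23 for endothelial cells and 1.12 and 1.60 for fibroblasts. Summed markers of neurons (0.698 and 0.849) and oligodendrocytes (0.744 and 0.867) were lower in replicate 2 in both layers. So were those of ependymal and choroid cells (0.787 and 0.621). Summed markers of astrocytes and mural cells were lower in replicate 2 in deep layers and higher in upper layers. The part of cell make-up in the levels of the 10 genes was not tested.

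Thbs4 (chr13:92751590-92794818, - strand), a pentameric thrombospondin like Thbs3, was near the limit of detection. It drew 13, 1 and 12 reads in deep and 4, 6 and 9 reads in upper layer astrocytes, 31, 17, 14 and 7 in non-astrocytes and 8, 20, 10 and 34 in bulk tissue. The libraries of all 3 fractions overlapped. The mean normalised count was 8.29 ± 5.33 (SD, n = 6) in astrocytes, 14.4 ± 8.05 (SD, n = 4) in non-astrocytes and 17.8 ± 11.7 (SD, n = 4) in bulk tissue. No difference between fractions was called, at -0.84 against non-astrocytes (interval -2.02 to 0.34, adjusted p = 0.191 by limma) and -1.08 against bulk tissue (interval -2.26 to 0.10, adjusted p = 0.0984). The second was called when deep layer astrocytes 1 or upper layer bulk tissue 1 was left out (adjusted p = 0.0479 and 0.0435).

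All 3 glypicans rose in astrocytes. Gpc5 (chr14:115092215-116525179, + strand) showed the largest rise of the 10 genes. It stood at 7366, 7414 and 6775 in deep and 7788, 7551 and 6968 in upper layer astrocytes. It stood at 383.6 and 448.3 in deep and 307.9 and 366.2 in upper layer non-astrocytes, and at 790.7, 825.9, 893.0 and 800.3 in bulk tissue. The spread within astrocytes was small, with a standard deviation of 375.4 on a mean of 7310. Gpc5 differed from non-astrocytes by 4.29 (SE 0.10, adjusted p = 1.20e-13 by limma), a ratio of means of 19.4, and from bulk tissue by 3.14 (SE 0.10, adjusted p = 1.10e-12). Non-astrocytes were in turn lower than bulk tissue (log2 -1.15, adjusted p = 4.59e-07). Of the exonic bases of Gpc5, 2.40% overlap Gm20713 on the opposite strand, which was listed at 113.4 ± 40.1 (SD, n = 6) in astrocytes.

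Gpc6 (chr14:116925315-117976544, + strand) lies next to Gpc5 on the same chromosome. It stood at 8342, 15598 and 7681 in deep and 8630, 11095 and 8942 in upper layer astrocytes. It stood at 1529 and 1540 in deep and 1754 and 2208 in upper layer non-astrocytes, and at 1225, 1312, 1879 and 2365 in bulk tissue. Deep layer astrocytes 2 stood above the other astrocyte libraries, while non-astrocytes and bulk tissue overlapped. Gpc6 differed from non-astrocytes by 2.49 (SE 0.18, adjusted p = 6.00e-09 by limma), a ratio of means of 5.72, and from bulk tissue by 2.57 (SE 0.18, adjusted p = 4.06e-09). The difference between non-astrocytes and bulk tissue was 0.09 (interval -0.32 to 0.50). Gpc4 (chrX:52053021-52165252, - strand) stood at 1041, 1096 and 938.9 in deep and 995.9, 1296 and 1274 in upper layer astrocytes. It stood at 232.3, 273.7, 256.4 and 387.7 in non-astrocytes and at 231.4, 227.3, 178.8 and 208.3 in bulk tissue. Astrocytes did not overlap the others, and the lowest non-astrocyte library lay just above the highest bulk library. Gpc4 differed from non-astrocytes by 1.96 (SE 0.14, adjusted p = 9.66e-09 by limma), a ratio of means of 3.85, and from bulk tissue by 2.38 (SE 0.14, adjusted p = 9.90e-10).

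The SPARC pair moved in opposite directions, at far higher levels. Sparcl1 (chr5:104079111-104113733, - strand) stood at 161985, 212504 and 196290 in deep and 182004, 193310 and 240768 in upper layer astrocytes. It stood at 18568, 22541, 17257 and 22392 in non-astrocytes and at 36349, 35366, 33047 and 33707 in bulk tissue. The 3 fractions did not overlap, with non-astrocytes the lowest. Sparcl1 differed from non-astrocytes by 3.29 (SE 0.14, adjusted p = 1.43e-11 by limma), a ratio of means of 9.80, and from bulk tissue by 2.50 (SE 0.14, adjusted p = 3.18e-10). Sparc (chr11:55394500-55423183, - strand) stood at 19043, 26109 and 23513 in deep and 16578, 23018 and 30878 in upper layer astrocytes. It stood at 140839 and 189645 in deep and 132732 and 206259 in upper layer non-astrocytes, and at 24356, 22275, 21473 and 17747 in bulk tissue. Non-astrocytes stood apart, and astrocytes and bulk tissue overlapped. Sparc differed from non-astrocytes by -2.86 (SE 0.18, adjusted p = 2.10e-09 by limma), with a non-astrocyte mean 7.22 times that of astrocytes. Against bulk tissue its difference was 0.09 (interval -0.30 to 0.49, adjusted p = 0.681). Summed markers of endothelial cells stood at 905.0 to 1710 in astrocytes, 51304 to 69439 in non-astrocytes and 6149 to 7396 in bulk tissue, and those of microglia at 1476 to 3688, 174811 to 252350 and 8461 to 9575. The part of these cells in the level of Sparc was not tested.

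Per kilobase of exon, Sparcl1 ranked 19 of 22091 genes in astrocytes, 70 in non-astrocytes and 45 in bulk tissue. Sparc ranked 20 in non-astrocytes and 93 in each of the other fractions. The ratio of Sparcl1 to Sparc per kilobase ran from 10.1 to 14.2 over the astrocyte libraries, 0.140 to 0.170 over the non-astrocyte libraries and 1.92 to 2.45 over bulk tissue. The pair made up nearly all reads of the 10 genes. Together the 10 genes took 0.920% to 1.13% of the reads in genes of an astrocyte library, and 0.0687% to 0.0861% without the SPARC pair.

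Tgfb1 (chr7:25687002-25705077, + strand) showed the largest difference of the 10 genes, and it was lower in astrocytes. It stood at 50.7, 4.26 and 27.5 in deep and 23.9, 19.6 and 49.6 in upper layer astrocytes, from 3 to 45 reads a library. It stood at 1510 and 2155 in deep and 1547 and 2582 in upper layer non-astrocytes, and at 136.3, 104.4, 127.2 and 80.1 in bulk tissue. The 3 fractions did not overlap, with bulk tissue between the sorted cells, and deep layer astrocytes 2 was the lowest library. Tgfb1 differed from non-astrocytes by -6.29 (SE 0.50, adjusted p = 6.54e-08 by limma), with a non-astrocyte mean 66.6 times that of astrocytes. It differed from bulk tissue by -2.19 (SE 0.50, adjusted p = 0.00156). All 10 microglia markers were higher in non-astrocytes, and their part in the level of Tgfb1 was not tested.

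**Figure D2:**
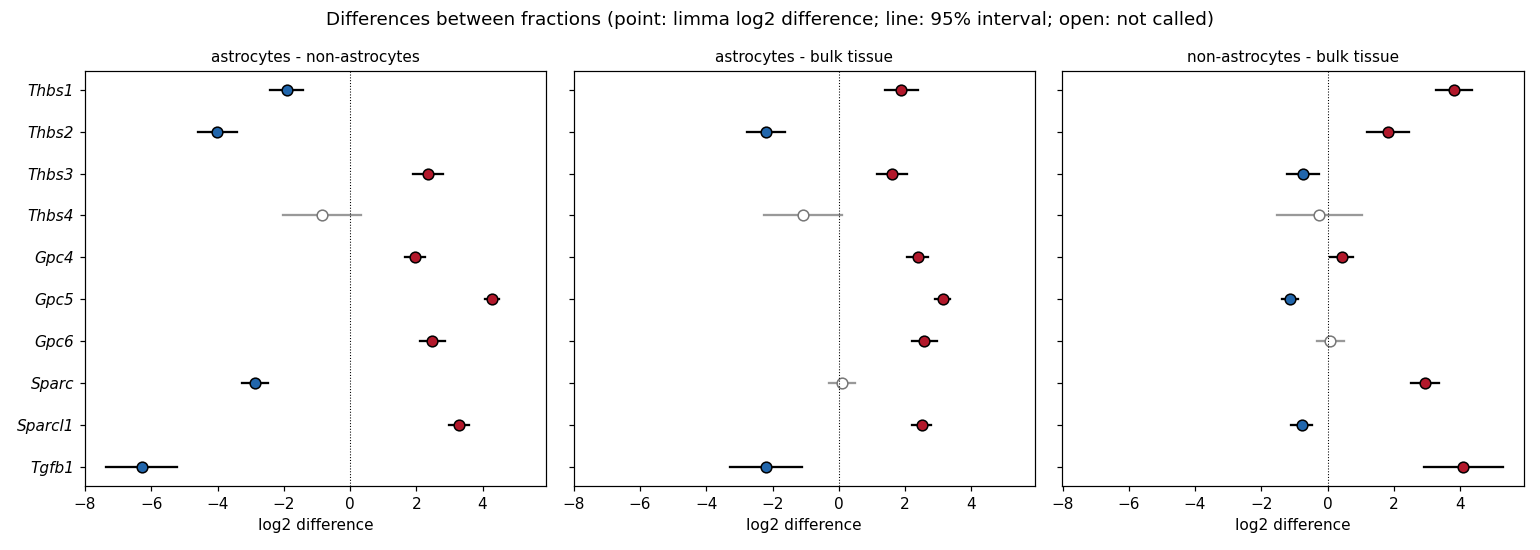
Log2 differences of the 10 genes between fractions (x axis) from limma, with points for estimates and lines for 95% intervals; red was called higher, blue was called lower and open points were not called. Gpc5 lies at 4.29 and Tgfb1 at -6.29 in the first panel, and Thbs4 is open in all 3.

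The sorted fractions were next set against whole tissue. Against bulk tissue, 6 of the 10 genes were higher in astrocytes (28.8% of all genes) and 2 were lower (36.1% of all genes). Non-astrocytes were higher than bulk tissue for 5 (30.5% of all genes) and lower for 3 (31.1% of all genes). These comparisons share the bulk libraries. Thbs1 was higher in both sorted fractions than in bulk tissue, and in non-astrocytes the difference was 3.81 (SE 0.26, adjusted p = 5.85e-09 by limma), a ratio of means of 14.2. Gpc4 was higher in both as well, by 0.42 in non-astrocytes (SE 0.16, adjusted p = 0.0308). Tgfb1, Sparc and Thbs2 were higher in non-astrocytes than in bulk tissue by 4.10, 2.95 and 1.81, with ratios of means of 17.4, 7.80 and 3.45. Sparcl1 and Gpc5 were lower in non-astrocytes than in bulk tissue, by -0.79 (adjusted p = 0.000325 by limma) and -1.15. Thbs3 was lower by -0.75 (adjusted p = 0.0107), although its libraries overlapped.

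The smallest of these calls rested on single libraries or on the scaling. The call for Gpc4 in non-astrocytes against bulk tissue was lost without deep layer non-astrocytes 2, upper layer non-astrocytes 2, deep layer bulk tissue 1 or 2, or upper layer bulk tissue 1 (adjusted p from 0.064 to 0.139 by limma), and that for Thbs3 without upper layer bulk tissue 1 (adjusted p = 0.0547). Without upper layer non-astrocytes 1 the 8 calls in this comparison held, with Gpc4 at 0.57 (adjusted p = 0.00491) and Thbs3 at -0.91 (adjusted p = 0.00480). Scaling by total reads moved the median of all genes in this comparison by 0.36 and the share of calls that were higher from 49.5% to 64.0%; Thbs3 was then not called (-0.38, adjusted p = 0.199) and Gpc6 was higher (0.46, adjusted p = 0.0128). In the 2 astrocyte comparisons that scaling moved the median by -0.17 and 0.18, the share of calls that were higher was 36.0% and 51.8% in place of 44.6% and 44.4%, and the calls of the 10 genes stayed as they were. Sorting needs dissociation, which bulk tissue did not go through. Of 12 genes of dissociation stress and immediate early response, 8 were higher in non-astrocytes than in bulk tissue and 1 was lower, while in astrocytes 2 were higher and 6 were lower. Their part in the differences from bulk tissue was not tested.

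Upper and deep layers were compared within each fraction, the contrast for which the layers had been dissected. No factor was called in any of the 3 (0 of 10 in each). Over all genes the layer comparison called 0.0797% in astrocytes, 0.00443% in non-astrocytes and 0.456% in bulk tissue. In bulk tissue the dissection itself was visible: 5 of 6 upper layer neuron genes were higher in upper layers, such as Cux2 at 7480 against 1812, and 6 of 7 deep layer neuron genes were lower. At an unadjusted p below 0.05, limma listed 0 of the 10 genes in astrocytes, 1 in non-astrocytes and 2 in bulk tissue. Over all 22575 genes it listed 2334, 871 and 1639 at that threshold. edgeR and DESeq2 each listed 0, 0 and 2 and called none. With the replicate number as a block, which pairs the astrocyte libraries across layers, the count over all genes in astrocytes rose from 18 to 188 and still held none of the 10.

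Among astrocytes, only Thbs1 had layers that did not overlap, at 64.4 ± 8.58 (SD, n = 3) in upper and 87.9 ± 11.9 (SD, n = 3) in deep layers. The difference was -0.44 (SE 0.30, interval -1.08 to 0.19, adjusted p = 0.589 by limma), which did not pass. How many of all genes had astrocyte layers without overlap was not counted, so the separation of Thbs1 cannot be weighed. Gpc5 was bounded most closely, at 0.05 with an interval from -0.23 to 0.33, a fold between 0.851 and 1.26. For Sparcl1 the difference was 0.11 (interval -0.26 to 0.48), for Gpc4 0.21 (interval -0.18 to 0.60) and for Gpc6 -0.07 (interval -0.55 to 0.40). Sparc and Thbs3 were centred near 0, at 0.00 (interval -0.49 to 0.50) and 0.04 (interval -0.53 to 0.61). Thbs2, Tgfb1 and Thbs4 were less precise, at -0.53 (interval -1.27 to 0.20), 0.58 (interval -0.78 to 1.95) and -0.15 (interval -1.64 to 1.34). Without deep layer astrocytes 2, which held 3 reads of Tgfb1, the difference of Tgfb1 turned to -0.38 and that of Gpc6 to 0.25. The difference of Thbs4 turned to 0.35, 0.23 and 0.16 without deep layer astrocytes 1, deep layer astrocytes 3 and upper layer astrocytes 1. A p that missed the threshold does not show that the layers are alike, and for the genes with few reads a fold as large as 3.85 for Tgfb1 lay within the interval.

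By unadjusted p, the leading layer differences lay in bulk tissue. The largest in size was that of Thbs4 in non-astrocytes, a gene with few reads, at -1.16 (interval -2.99 to 0.66, unadjusted p = 0.195 by limma). Without upper layer non-astrocytes 1 that of Thbs4 was -1.51. Gpc6 stood at 1879 and 2365 in upper and 1225 and 1312 in deep layer bulk tissue, without overlap, a difference of 0.73 (SE 0.27, interval 0.15 to 1.31, unadjusted p = 0.0170 and adjusted p = 0.449 by limma). Thbs1 went the other way, at 11.98 and 16.03 in upper and 32.9 and 22.2 in deep layers, a difference of -0.91 (SE 0.36, interval -1.69 to -0.14, unadjusted p = 0.0239 and adjusted p = 0.524 by limma). Neither passed over all genes. In the fit on the bulk libraries alone, which calls 1093 genes in place of 103, Gpc6 was called (adjusted p = 0.00972 by limma). In non-astrocytes Thbs3 was the gene listed, at 50.7 and 32.3 in upper against 76.1 and 59.1 in deep layers (log2 -0.71, SE 0.33, unadjusted p = 0.0447 and adjusted p = 1 by limma). Without upper layer non-astrocytes 1, which leaves 1 library on that side, it was -1.03 (SE 0.37, adjusted p = 1), and Gpc4 moved from 0.32 to 0.62 (SE 0.23, adjusted p = 1). The layer difference of Gpc6 in astrocytes was near 0, as given above, and in non-astrocytes it was 0.36 (interval -0.22 to 0.94), or 0.52 without upper layer non-astrocytes 1.

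Whether the layer difference of a gene differed between astrocytes and non-astrocytes was tested directly. No factor was called (0 of 10, and 0.00443% of all genes), and by limma, edgeR and DESeq2 alike 0 of the 10 reached an unadjusted p below 0.05. By limma, 1350 of all 22575 genes reached it. Thbs3 and Gpc5 had the smallest p, with differences of 0.75 (interval -0.14 to 1.65) and 0.35 (interval -0.09 to 0.80) and an adjusted p of 0.801 each by limma. Without upper layer non-astrocytes 1 these were 1.07 (SE 0.44) for Thbs3 and 0.23 (SE 0.22) for Gpc5, with an adjusted p of 1 each.

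**Figure D3:**
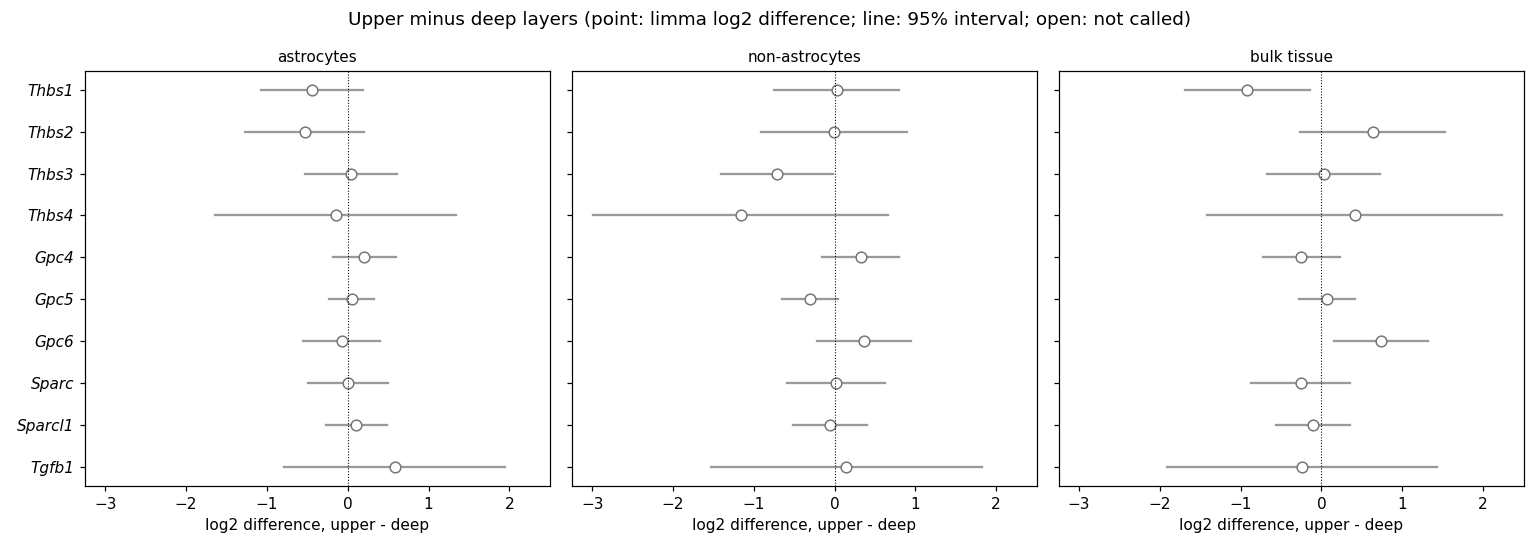
Log2 differences of the 10 genes between upper and deep layers (x axis) in astrocytes, non-astrocytes and bulk tissue from limma, with points for estimates and lines for 95% intervals. All points are open, since none was called, and the narrowest interval in astrocytes is that of Gpc5, from -0.23 to 0.33.

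Set within their families per kilobase of exon, the factors changed places between fractions. In astrocytes Thbs3 made up 71.9% ± 8.11 (SD, n = 6) of thrombospondin counts and Thbs2 6.39% ± 2.09. In non-astrocytes Thbs2 led with 53.3% ± 3.31 (SD, n = 4), followed by Thbs1 with 31.9% ± 3.45, and Thbs3 held 7.95% ± 3.47. Bulk tissue lay between, with Thbs2 at 40.3% ± 9.53 (SD, n = 4) and Thbs3 at 32.7% ± 5.80. The leading thrombospondin of each sorted fraction lay near the middle of all genes: per kilobase, Thbs3 in astrocytes ranked 11226 of 22091 genes, and Thbs2 in non-astrocytes ranked 10028. The relative Comp, also named thrombospondin 5, was lower in astrocytes than in non-astrocytes at 5.27 ± 7.04 (SD, n = 6) against 15.4 ± 6.47 (SD, n = 4). The log2 difference was -1.98 (adjusted p = 0.0184 by limma). Like Thbs4, Comp was near the limit of detection in both sorted fractions, and its SD in astrocytes exceeded its mean, which limits this call.

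Glypican counts in astrocytes were shared by Gpc5 with 43.4% ± 4.63 (SD, n = 6) and Gpc6 with 40.3% ± 6.15, with 10.99% ± 1.40 for Gpc4. The order of Gpc5 and Gpc6 was not fixed within astrocytes, where their ratio per kilobase ran from 0.768 to 1.46 for Gpc6 over Gpc5, the highest in deep layer astrocytes 2. In non-astrocytes Gpc6 led with 38.7% ± 4.30 (SD, n = 4), and Gpc3, a glypican outside the 10 genes, came second with 17.7% ± 2.30. Gpc3 stood at 340.3 ± 85.6 (SD, n = 4) in non-astrocytes against 5.86 ± 4.01 (SD, n = 6) in astrocytes. Summed over the family, glypican counts per kilobase were 3824 ± 496.2 (SD, n = 6) in astrocytes, 707.2 ± 104.9 (SD, n = 4) in non-astrocytes and 678.4 ± 37.9 (SD, n = 4) in bulk tissue. Gpc1 and Gpc2 were higher in astrocytes than in non-astrocytes as well (log2 0.67 and 0.93, adjusted p = 0.0286 and 0.000442 by limma), but 55.6% of the exonic bases of Gpc2 overlap another gene, so its level is uncertain.

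Within the SPARC family, Sparcl1 took 90.3% ± 0.798 (SD, n = 6) of astrocyte counts per kilobase and Sparc 76.0% ± 0.810 (SD, n = 4) of those of non-astrocytes. The 6 other family genes tested (Smoc1, Smoc2, Spock1, Spock2, Spock3 and Fstl1) were all lower in astrocytes than in non-astrocytes. The testican gene Spock2 was the highest of them, at 2857 ± 1363 (SD, n = 6) against 31983 ± 7536 (SD, n = 4), a log2 difference of -3.59. Among the TGF-beta ligands Tgfb2 held 93.5% ± 2.52 (SD, n = 6) in astrocytes and Tgfb1 1.58% ± 1.08, while in non-astrocytes Tgfb1 led with 57.6% ± 3.52 (SD, n = 4). Tgfb2 was higher in astrocytes, at 2098 ± 339.6 (SD, n = 6) against 965.9 ± 111.0 (SD, n = 4), a log2 difference of 1.11 (SE 0.14, adjusted p = 3.27e-06 by limma). Tgfb3 was lower, with a log2 difference of -2.62.

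**Figure D4:**
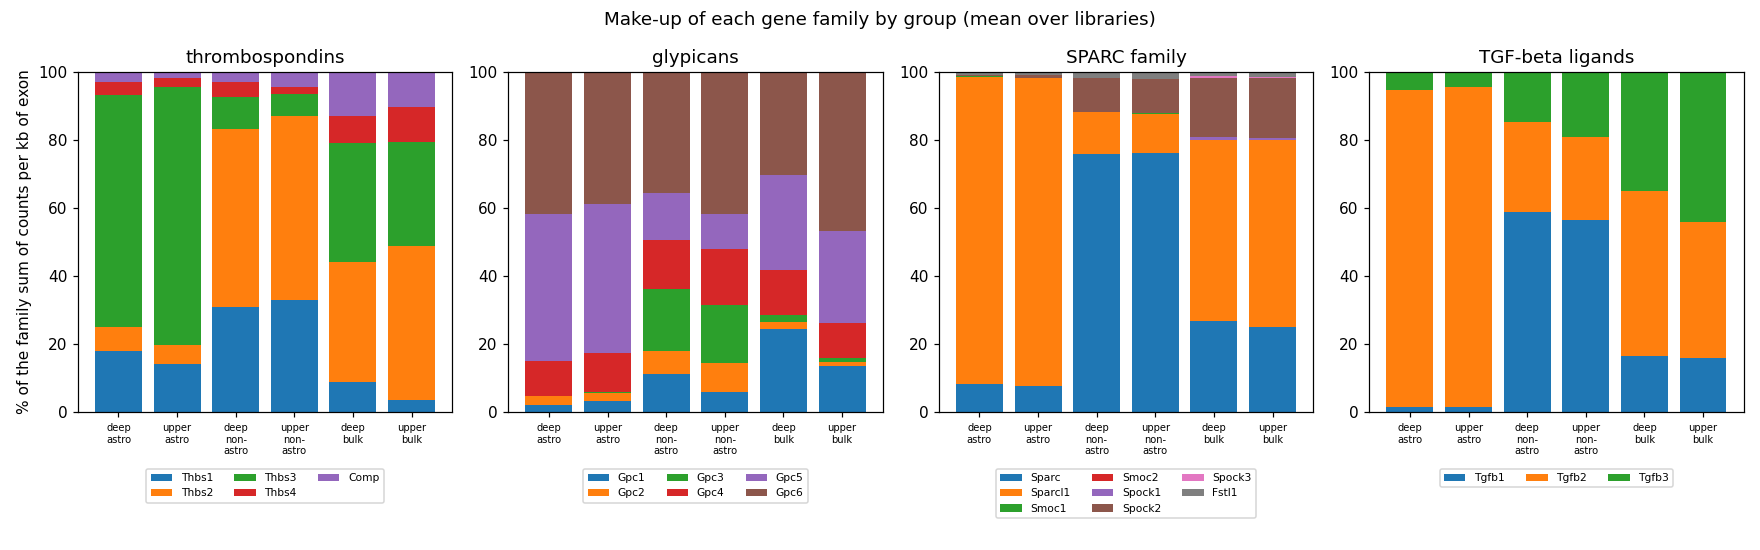
Share of each gene in its family's summed counts per kilobase of exon (y axis, percent), by group; stacked bars are means over the 2 or 3 libraries of a group and start at 0. Thbs3, Gpc5 with Gpc6, Sparcl1 and Tgfb2 fill most of the astrocyte bars, while Thbs2, Sparc and Tgfb1 lead in non-astrocytes.

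Receptors and partners of the factors were then counted in astrocytes against non-astrocytes, from lists taken by known function. Of 11 thrombospondin receptor genes, 5 were higher, 5 were lower and 1 was not called (29.6% of all tested genes were higher and 36.8% were lower). Cacna2d1, which encodes the alpha2delta-1 receptor, was lower, at 206.5 ± 33.2 (SD, n = 6) in astrocytes against 1257 ± 258.5 (SD, n = 4) in non-astrocytes, and was highest in bulk tissue at 6062 ± 1859 (SD, n = 4). Its relative Cacna2d2 was higher in astrocytes, at 1265 ± 167.5 (SD, n = 6) against 148.8 ± 35.6 (SD, n = 4) (log2 3.10, SE 0.14, adjusted p = 4.58e-11 by limma). The integrin subunit gene Itgb3 was lower (log2 -4.36), and so was Cacna2d3 (log2 -3.79). The list's median was -0.37, beside -0.08 over all genes.

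Of 11 genes of glypican receptors and shedding enzymes, 3 were higher, 6 were lower and 2 were not called, beside 29.6% and 36.8% of all tested genes, with a median of -1.47. Ptprf, a receptor-type phosphatase that binds heparan sulfate proteoglycans, was higher in astrocytes at 2966 ± 752.0 (SD, n = 6) against 593.5 ± 163.7 (SD, n = 4), and its relatives Ptprd and Ptprs were not called. Nptx2, which encodes a neuronal pentraxin that gathers AMPA receptors, was higher by 4.17 (SE 0.26, adjusted p = 1.58e-09 by limma). Lrrtm4, a postsynaptic partner of glypicans, was lower by -4.01. Gpld1, a phospholipase that can cut lipid anchors, was higher by 3.28, although 45.5% of its exonic bases overlap another gene and its level is uncertain. Of 13 genes of heparan sulfate synthesis and editing, 2 were higher, 8 were lower and 3 were not called, beside the same shares, with a median of -0.94. Named by smallest p were the 6-O-endosulfatase gene Sulf2, at 99.9 ± 60.6 (SD, n = 6) in astrocytes against 8685 ± 3552 (SD, n = 4), and the sulfotransferase genes Ndst3 (log2 -6.36) and Hs6st2 (log2 -4.77).

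Of 11 tested partners of Sparc and hevin, 5 were higher and 6 were lower, beside 29.6% and 36.8% of all tested genes. The collagen gene Col4a1 and the scavenger receptor gene Stab1, whose protein takes up Sparc, were lower, by -4.60 and -4.29. The list's median was -0.82, beside -0.08 over all genes.

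Of 14 genes of TGF-beta receptors and latency proteins, 4 were higher and 10 were lower, beside 29.6% and 36.8% of all tested genes, with a median of -1.80. Both signalling receptors were lower in astrocytes: Tgfbr1 at 881.7 ± 166.2 (SD, n = 6) against 17288 ± 2117 (SD, n = 4), and Tgfbr2 at 178.9 ± 37.6 against 4773 ± 734.5. Eng and Ltbp4 were lower too (log2 -6.64 and -4.90). The 4 higher genes, singled out for their direction, were Itgb8 (log2 2.88), Ltbp1 (2.21), Itgav (1.71) and Ltbp3 (0.59), of which Itgb8 and Itgav encode the subunits of an integrin that frees TGF-beta from its latent complex. All 12 tested SMAD and response genes were lower in astrocytes (36.8% of all genes were), with a median of -3.60, such as Smad7 at 103.7 ± 17.7 (SD, n = 6) against 1500 ± 160.5 (SD, n = 4). The 12 genes of dissociation stress and immediate early response were also all lower, with a median of -4.43. The parts of cell make-up and of stress in the SMAD and response genes were not tested.

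**Figure D5:**
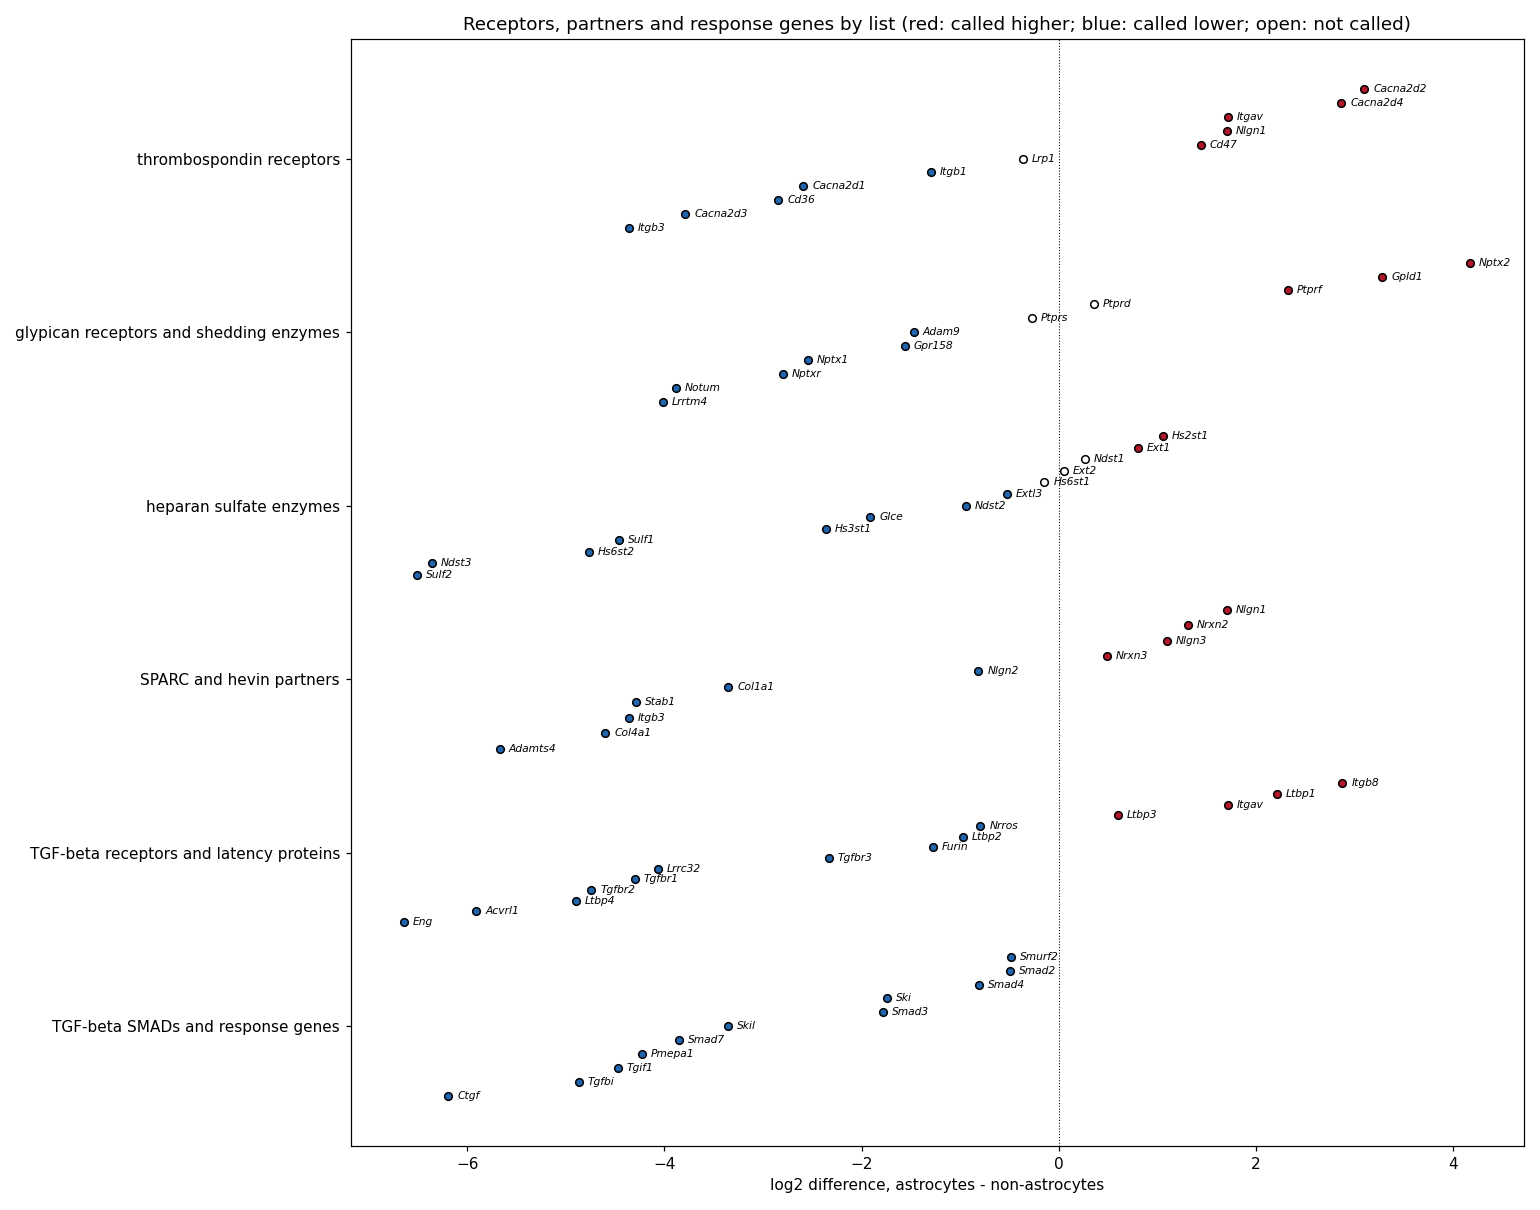
Log2 differences between astrocytes and non-astrocytes (x axis) for receptors, partners and response genes in 6 lists (y axis), 1 point per gene shown; red was called higher, blue was called lower and open points were not called. The TGF-beta SMAD and response genes lie wholly below 0, while the thrombospondin receptors split into 5 on either side.

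Across the layers 1 gene of these lists of partners was called, Itgb3 in bulk tissue. It was lower in upper layers at 148.4 ± 19.6 (SD, n = 2) against 709.4 ± 83.4 (SD, n = 2), a log2 difference of -2.25 (SE 0.26, adjusted p = 0.00079 by limma).

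The factors also differed in which genes they followed over the 14 libraries. These correlations describe libraries that share their fraction, so they mostly follow the sort, and they are given without a test. Gpc5 and Sparcl1 ran most closely together (Pearson r = 0.994 of log2 values), followed by Thbs3 with Gpc5 (0.961) and Gpc4 with Gpc6 (0.955). Thbs2 ran with Tgfb1 (0.909) and against Thbs3 (-0.935). Thbs1 followed Sparc (0.837). Sparc and Sparcl1 ran against each other, with r of -0.652. Over 16072 genes searched, those most like Gpc5 were Pou3f4 (0.998), AW047730 (0.998) and Gja1 (0.997), the last encoding the gap junction protein connexin 43. Most like Sparcl1 were Nhsl1 (0.997), the water channel gene Aqp4 (0.996) and Kcnn3 (0.996). Those most like Gpc4 were Fgfr1 (0.990), Timp3 (0.990) and Rapgef3 (0.988), and like Gpc6 Rb1 (0.987), Znrf3 (0.986) and Pts (0.985). Thbs3 was most like Hsdl2 (0.974), Gk (0.973) and the zinc transporter gene Slc39a12 (0.973).

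The factors that were lower in astrocytes than in non-astrocytes had other neighbours. Tgfb1 was most like Parvg (0.994), Stat6 (0.993) and Tagln2 (0.992), and Sparc most like Zcchc6 (0.988), Msn (0.988) and Wfdc1 (0.987). Thbs1 was most like Heyl (0.985), a Notch target gene, Gab1 (0.984) and Shroom4 (0.983), and Thbs2 like Tbc1d8 (0.984), Sh3kbp1 (0.984) and Fam129a (0.982). Thbs4 had no such close match, its highest values being 0.847 for Gmeb2, 0.827 for Ddx41 and 0.825 for Cnot7.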

How the data were processed

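RNA was sequenced from sorted cortical cells and whole tissue. Papain dissociation, sorting on GFP with exclusion of DAPI-stained dead cells, Trizol LS and RNeasy extraction and NuGEN RNA-Seq V2 amplification were used, per the labels' protocols. Tools named are CASAVA, TopHat2 2.0.11, HTSeq 0.6.1p1 and DESeq2, with the GRCm38 build, per the submitters' processing notes. The strand setting is not given in the sources used here. The deposited values are a signal: the authors' read counts per gene over a library size factor (0.705 to 1.303). Reads were recovered as whole numbers for 100% of values, within 1e-06, and ran from 18226457 to 30316765 per library, which limits precision for Thbs4 and Tgfb1. Groups follow the titles; in both sorted fractions of the upper layers the characteristics say bulk tissue.

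Genes with a value of 10 in at least 2 libraries were kept (22575). limma 3.58.1 in R 4.3.3, with trend and robust moderation, was fitted on log2(value + 1) as 1 model of 6 group means with 8 residual degrees of freedom, which understates changes of low genes. p-values were adjusted by Benjamini-Hochberg within each comparison, and intervals are 95% moderated intervals. edgeR 4.0.16 and DESeq2 1.42.0 on the recovered reads were among the alternatives, with other pseudocounts, filters and scalings, the compared groups alone, a replicate block and leaving out each library. Same-numbered astrocyte libraries deviated together across layers (r = 0.323, 0.210 and 0.333 over 16072 genes). The replicate block therefore took the numbers to pair these libraries, and the pairing comes from the labels' replicate numbers. The main fit holds no block, so its layer tests and intervals are unpaired. Symbols, coordinates and exon lengths come from GENCODE M21, which matched 32007 genes.

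All 10 genes are given. From each list of partners, up to 4 genes with the smallest p in astrocytes against non-astrocytes are named, with any called between layers, and for likeness the 3 genes with the highest r; other family genes and genes that went against their list were picked once their values were known. The genes and lists were chosen with earlier results of these data known. Lists are counted in full, but 2 of their genes are not reported here and are not drawn.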

Additional observations from a re-analysis of the deposited data

How the results depend on the processing

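Over the alternatives other than leaving out a library, 675 of the values of single factors kept their direction and side of the threshold, 2 lost a call, 2 gained one and 12 turned direction. Over the leave-one-out fits 932 kept both, 6 lost a call, 2 gained one and 40 turned direction. The 9 calls between astrocytes and non-astrocytes held under every alternative run. No value was had for Thbs4 under the filter of 50 in 3 libraries. The lost and gained calls are Thbs3, Gpc4, Gpc6 and Thbs4 against bulk tissue, as given with those results, and Gpc6 between layers within bulk tissue on those groups alone (adjusted p = 0.00972 by limma). Gpc4 was also lost in non-astrocytes against bulk tissue on those groups alone (adjusted p = 0.0608 by limma). Depth limits Thbs4 and Tgfb1, and 2 libraries a group limit the layer comparisons outside astrocytes. The cause of the changes below was not tested.

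The number of genes called between layers in astrocytes was 142 by DESeq2, 1 on these groups alone and 188 with the replicate block, against 18. In non-astrocytes it was 4 with a pseudocount of 10, 13 without the filter, 7 by edgeR, 139 by DESeq2, 0 on these groups alone and 33 with the replicate block, against 1. In bulk tissue it was 340 with a pseudocount of 10, 167 by edgeR, 428 by DESeq2, 1093 on these groups alone (which called 1 factor higher) and 261 with the replicate block, against 103. For the difference between layer differences it was 0 when scaled by total reads, 59 by DESeq2, 0 on these groups alone and 4 with the replicate block, against 1. The block changed no call of the 10 genes. In every fraction the labels give the libraries only a number. Outside astrocytes, same-numbered libraries of the 2 layers correlated at 0.666 in non-astrocytes and 0.170 in bulk tissue. The main fit holds no block, so its layer intervals leave such pairing out. Leaving out 1 library gave 12 to 56 called genes in astrocytes, 0 to 12 in non-astrocytes, 11 to 216 in bulk tissue and 0 to 2 for the difference. The factors called against bulk tissue were then 6 higher and 2 to 3 lower in astrocytes, and 4 to 5 higher and 2 to 3 lower in non-astrocytes.

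Every direction that turned was that of a factor not called in that comparison. With all libraries kept, the values that turned were these. Between layers in astrocytes, Sparc was -0.026 with TMM scaling and -0.017 by total reads, and Thbs3 -0.019 by edgeR. In non-astrocytes Thbs2 was 0.00917 with TMM scaling, 0.092 by total reads, 0.020 by edgeR and 0.012 by DESeq2, and Sparcl1 0.043 by total reads. Sparc in astrocytes against bulk tissue was -0.031 with the block, and Thbs4 in non-astrocytes against bulk tissue 0.099 by total reads. For the difference between layer differences Tgfb1 was -0.093 by edgeR and -0.013 by DESeq2. Leaving out 1 library gave, between layers in astrocytes, -0.265 to 0.246 for Gpc6, -0.216 to 0.232 for Sparc, -0.011 to 0.193 for Sparcl1, -0.375 to 1.27 for Tgfb1, -0.126 to 0.277 for Thbs3 and -1.03 to 0.353 for Thbs4. In non-astrocytes it gave -0.300 to 0.336 for Sparc, -0.246 to 0.130 for Sparcl1, -0.222 to 0.517 for Tgfb1, -0.407 to 0.457 for Thbs1 and -0.374 to 0.358 for Thbs2. In bulk tissue it gave -0.014 to 0.144 for Gpc5, -0.568 to 0.092 for Tgfb1, -0.234 to 0.288 for Thbs3 and -0.478 to 1.30 for Thbs4. Against bulk tissue it gave -0.018 to 0.206 for Sparc in astrocytes and -0.690 to 0.199 for Thbs4 in non-astrocytes. For the difference between layer differences it gave -0.413 to 0.181 for Gpc4, -0.332 to 0.304 for Sparc, -0.022 to 0.354 for Sparcl1 and -0.523 to 1.13 for Tgfb1.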
